A study of Mus musculus with 12 samples.

Results

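The 10 genes Fabp4, Fabp5, Cd36, Lpl, Apoe, Abca1, Abcg1, Plin2, Lipa and Msr1, which serve lipid uptake, binding, storage and efflux, were followed from monocytes into dendritic cell culture. They were chosen by name as a functional group, 10 of the 47643 genes in the count files, and all 10 were among the 14034 genes with enough reads to be tested. Poly(A) RNA had been sequenced from bone-marrow cells of mice on a C57BL/6 background. The groups are Nr4a3 KO monocytes straight after sorting (undifferentiated, KO monocytes), Nr4a3 KO monocytes cultured in the presence of GM-CSF plus IL-4 over 1 day (KO day 1) or 2 days (KO day 2), and the WT monocytes, WT day 1 and WT day 2 cells treated in the same ways. Each of the 6 groups has 2 libraries, which the labels assign to independent experiments. These cytokines are a standard means of driving monocytes towards dendritic cells in a dish. Nr4a3 encodes an orphan nuclear receptor, and the series title asks what part it plays in that differentiation. The labels give neither the Nr4a3 allele, nor the age of the mice, nor how many mice were pooled for a library.

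Myeloid cells take up fatty acids and lipoproteins through scavenger receptors such as CD36 and MSR1, and lipoprotein lipase frees fatty acids from triglyceride outside the cell. Fatty-acid-binding proteins carry the acids inside the cell, perilipin 2 coats the droplets that store them, and lysosomal acid lipase (Lipa) frees cholesterol and fatty acids from ingested lipoproteins. The transporters ABCA1 and ABCG1 then hand cholesterol to lipoprotein particles, which apolipoprotein E helps to form. Several of these genes are textbook targets of the lipid-sensing nuclear receptors PPARgamma (Pparg) and LXRalpha (Nr1h3), and both FABP4 and FABP5 are known in macrophages as well as fat.

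Levels are given as CPM, read counts in proportion to the TMM-scaled library size, replicate 1 before replicate 2. Changes are log2 fold changes ± SE from edgeR's quasi-likelihood test over all 12 libraries, with p-values adjusted by Benjamini-Hochberg over all 14034 genes and a threshold of 0.05. Library depth ran from 5905266 to 18447405 reads in genes. In bulk RNA, fewer cells of a type and less RNA per cell cannot be told apart.

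Some libraries stood apart, which touches several of the genes below. On the first principal component, which held 52.9% of variance, the library labelled KO day 1 replicate 1 lay at 1.59, where the remaining day 1 libraries spanned 38.4 to 46.7. It held 6.58 CPM of Nr4a3, where KO day 1 replicate 2 held 0, KO day 2 libraries 39.0 and 19.3 CPM, WT day 1 libraries 16.5 and 10.4 CPM and WT day 2 libraries 1290 and 1360 CPM. KO monocytes held 0.928 and 0 CPM of Nr4a3, and WT monocytes 0.307 and 0 CPM. In WT monocytes replicate 2, ribosomal protein genes made up 8.74% of reads in genes, where the remaining 3 monocyte libraries gave 4.09% to 5.06%. Its neutrophil markers summed to 3890 CPM and its erythroid markers to 174 CPM, where those 3 libraries gave 969 to 1890 CPM and 31.8 to 69.9 CPM, and their part in the Abca1 and Abcg1 values was not tested. Of the neutrophil markers, S100a9 and S100a8 gave the most reads, 65505 and 42110 over all libraries, where Ly6g gave 93. Both were at 65.4 CPM or more in every library, so the sum is no clean measure of neutrophils. For day 1 replicate 2 of KO and of WT, the deposited file names give a shorter culture than the labels. The replicates of each day 1 group may thus differ in culture time, and its part in the day 1 values was not tested. By the dates in the deposited file names, day 2 was run in separate experiments, so the effect of day 2 and that of its experiments cannot be told apart. A block by experiment therefore pairs no day 2 library with a monocyte or day 1 library. In comparisons of day 2 with those stages it only takes the spread shared by KO and WT of an experiment out of the error, so its p-values there do not cover the spread between experiments. Day 2 replicate 1 held 794 CPM (KO) and 885 CPM (WT) of Xist, a noncoding RNA of female cells, against at most 1.01 CPM in the other 10 libraries. Classical monocyte markers summed to 833 to 1480 CPM in KO day 2 and 700 to 1760 CPM in WT day 2, against 18500 to 18800 CPM in KO monocytes and 16300 to 19800 CPM in WT monocytes. Dendritic cell markers summed to 25200 to 28900 CPM in KO day 2 and 17700 to 19900 CPM in WT day 2, against 210 to 271 CPM in monocytes. Cd74 gave the most reads of these markers, 741230 over all libraries, followed by H2-Aa (253595) and H2-Ab1 (225955). Zbtb46 gave 4295 and Flt3 gave 970, so the sum is no clean measure of dendritic cells.

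The RefSeq promoter table (GRCm38.p6, windows of 300 bases around an annotated start) held windows for 5 of the 10 genes, Abca1, Apoe, Cd36, Lipa and Plin2. Those of Cd36 and Abca1 are shown because both genes rose in culture, and that of Plin2 because it holds the same receptor motif as Cd36 while Plin2 passed no test. Capitals mark AGGTCA, the core motif of many nuclear receptors, which reads TGACCT on the other strand, or the TATA box letters TATAAA.
Cd36, chr5:17835847-17836146, minus strand: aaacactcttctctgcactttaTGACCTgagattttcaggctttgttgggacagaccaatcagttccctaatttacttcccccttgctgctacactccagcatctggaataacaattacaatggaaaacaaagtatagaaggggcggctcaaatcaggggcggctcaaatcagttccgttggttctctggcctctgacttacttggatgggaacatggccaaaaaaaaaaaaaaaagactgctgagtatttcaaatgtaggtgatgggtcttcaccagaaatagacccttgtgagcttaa
Plin2, chr4:86670010-86670309, minus strand: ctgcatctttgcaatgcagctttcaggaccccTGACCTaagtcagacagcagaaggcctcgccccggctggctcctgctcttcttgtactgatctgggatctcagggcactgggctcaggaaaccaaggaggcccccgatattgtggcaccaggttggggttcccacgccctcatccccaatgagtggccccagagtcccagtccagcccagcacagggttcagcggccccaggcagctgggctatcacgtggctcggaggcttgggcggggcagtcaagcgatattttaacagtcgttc
Abca1, chr4:53159846-53160145, minus strand: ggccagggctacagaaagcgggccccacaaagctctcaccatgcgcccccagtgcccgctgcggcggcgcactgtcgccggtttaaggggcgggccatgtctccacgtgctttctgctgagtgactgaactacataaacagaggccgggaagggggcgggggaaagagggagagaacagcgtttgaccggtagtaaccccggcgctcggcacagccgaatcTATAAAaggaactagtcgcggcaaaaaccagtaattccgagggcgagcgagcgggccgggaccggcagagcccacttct

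Both strands of each window were searched. AGGTCA lay at position -228 of Cd36 and -218 of Plin2, counted from the annotated start and both on the strand opposite to the gene, and 16.3% of the 32851 promoter windows hold it. The Cd36 window belongs to a start inside the gene, which spans 17781690 to 17888801 on the minus strand. The outermost Cd36 start, at 17888801, had no window. TATAAA lay at position -29 of Abca1 on the gene's strand, in 1 of the 3 Apoe windows and in that of Lipa, and 13.6% of all windows hold it. AAAGGTCA, the motif that NR4A receptors bind as monomers and which contains AGGTCA, was in none of the windows of these 5 genes (1.51% of all windows hold it). Direct repeats of AGGTCA with 1 base between them, the kind PPAR dimers bind, or with 4 bases between them, the kind LXR dimers bind, were likewise in none (0.0396% and 0.0152% of all windows). Only exact letters were searched for, so repeats that differ from them in a base would be missed. With so few of all windows holding the exact repeats, their absence from these 5 genes was likely from the start. These are matches of letters in short windows and say nothing about binding.

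With culture, 6 of the 10 genes passed in at least 1 comparison with monocytes: the uptake genes Cd36 and Lpl (higher), the carrier Fabp5 (higher), the efflux transporters Abcg1 and Abca1 (higher by day 2) and Apoe (lower). At day 1, 3 members rose in KO cells (Fabp5, Cd36 and Lpl) and none fell, against 7.7% of all tested genes higher and 6.14% lower. In WT cells at day 1, 3 rose (Cd36, Lpl and Abcg1) and 1 fell (Apoe), against 11.4% of all genes higher and 10.1% lower. At day 2, 4 rose in KO cells (Cd36, Lpl, Abca1 and Abcg1) and Apoe fell, against 9.95% of all genes higher and 7.57% lower. In WT cells at day 2, 5 rose (Fabp5, Cd36, Lpl, Abca1 and Abcg1) and Apoe fell, against 12.7% of all genes higher and 9.89% lower. The median log2 fold change of the 10 members was 1.49 in KO day 2 and 2.78 in WT day 2, where the medians over all tested genes were 0.0803 and 0.0921. Fabp4, Plin2, Lipa and Msr1 passed in none of these 4 comparisons.

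**Figure D1:**
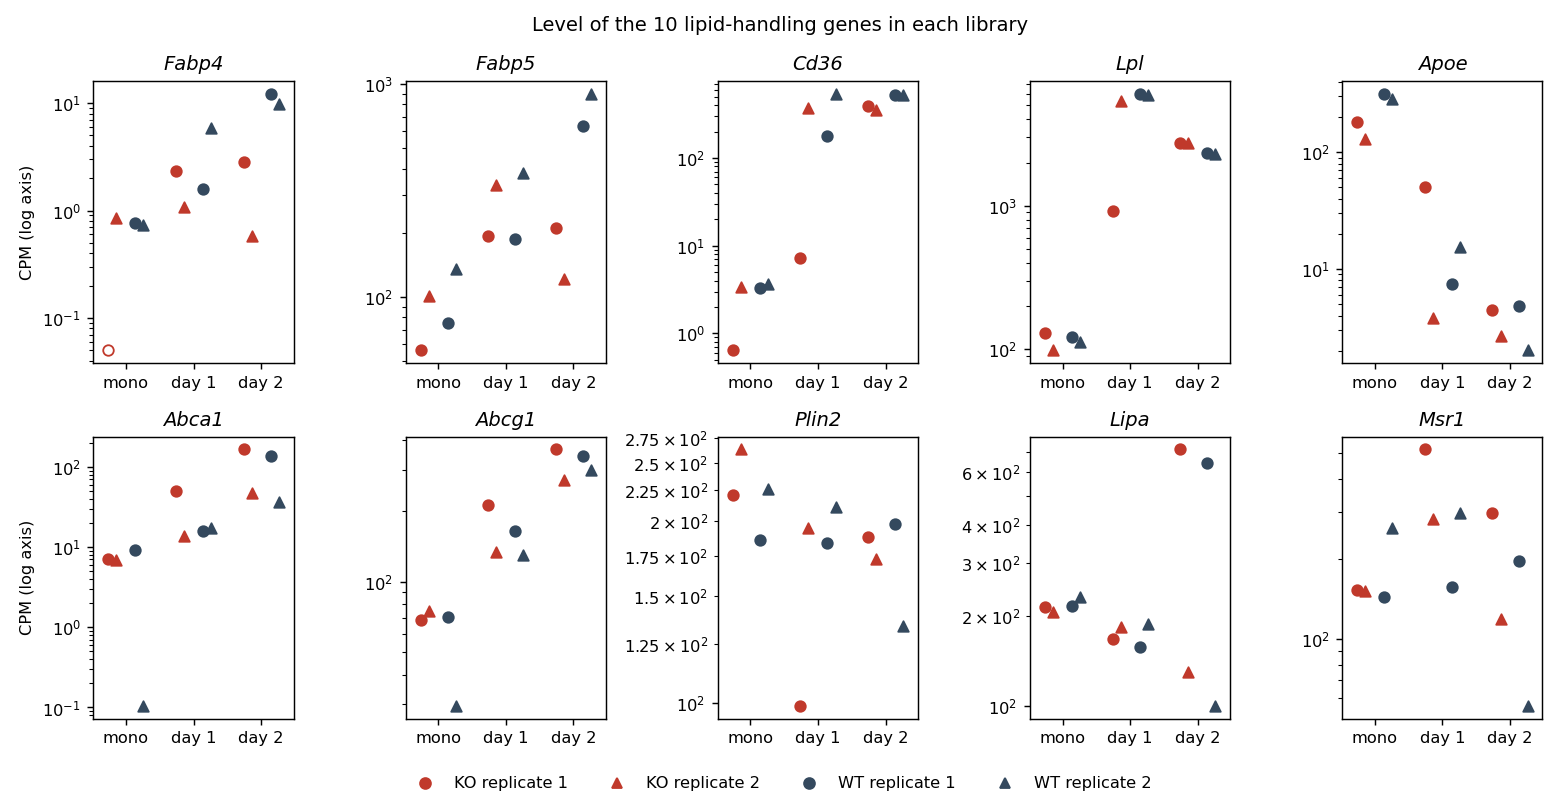
Level of each gene in each of the 12 libraries, in CPM on a log axis, KO (red) left of WT (dark blue) at each stage, with circles for replicate 1 and triangles for replicate 2. The open circle for Fabp4 is a library with 0 reads, drawn at the foot of the axis. Fabp5 at day 2 shows the KO libraries at 211 and 121 CPM and the WT libraries at 635 and 897 CPM.

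Among the uptake genes, Cd36 went through the largest change. Cd36, the class B scavenger receptor for long-chain fatty acids and oxidised lipoproteins (GRCm38 chromosome 5, 17781690 to 17888801, minus strand), stood at 388 and 352 CPM in KO day 2 and at 522 and 527 CPM in WT day 2. Sorted monocytes held 0.643 and 3.40 CPM of Cd36 in KO and 3.30 and 3.69 CPM in WT. Every day 2 library was thus far above every monocyte library, by 7.50 ± 1.56 on the log2 scale in KO (edgeR adjusted p = 0.00825) and 7.23 ± 1.53 in WT (adjusted p = 0.00753). At day 1 the libraries of a group disagreed, with 7.27 and 369 CPM of Cd36 in KO and 180 and 538 CPM in WT. The low value is that of the library labelled KO day 1 replicate 1. Cd36 rose by 6.53 ± 1.5 in KO day 1 (edgeR adjusted p = 0.0172) and 6.68 ± 1.5 in WT day 1 (adjusted p = 0.0112). The KO day 1 call of Cd36 was lost without KO day 1 replicate 2 (1.85, adjusted p = 0.235) or either KO monocyte library, and in a fit on only the groups compared (adjusted p = 0.149), the WT day 1 call without WT monocytes replicate 2 (adjusted p = 0.0545), and the KO day 2 call without KO monocytes replicate 1 (adjusted p = 0.0759).

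Lpl, the secreted lipase that splits triglyceride in lipoproteins (chromosome 8, 68880491 to 68907448, plus strand), was higher in 3 of the 4 day 1 libraries than in any day 2 library. It stood at 922 and 5340 CPM in KO day 1, 2720 CPM in both KO day 2 libraries, and 129 and 98.4 CPM in KO monocytes. In WT cells Lpl stood at 6020 and 5920 CPM at day 1, 2320 and 2300 CPM at day 2, and 121 and 112 CPM in monocytes. The 922 CPM is again that of the library labelled KO day 1 replicate 1, and the replicates at the other stages lay close together. Lpl rose at day 1 by 4.79 ± 0.69 in KO (edgeR adjusted p = 0.0019) and 5.68 ± 0.72 in WT (adjusted p = 0.000711), and at day 2 by 4.58 ± 0.68 in KO (adjusted p = 0.00145) and 4.31 ± 0.67 in WT (adjusted p = 0.0015). The calls of Lpl in these 4 comparisons held when any 1 library was left out.

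Msr1, the class A scavenger receptor for modified lipoproteins (chromosome 8, 39581685 to 39642673, minus strand), did not pass, and its replicates were far apart. KO libraries held 152 and 151 CPM of Msr1 as monocytes, 515 and 281 CPM at day 1 and then 298 and 119 CPM at day 2. WT libraries held 144 and 260 CPM as monocytes, 157 and 296 CPM at day 1 and then 196 and 56.0 CPM at day 2. The groups overlapped at day 2, and both KO day 1 libraries lay above both KO monocyte libraries. The change in KO day 1 was 1.39 ± 0.63 (edgeR adjusted p = 0.166), and a fit that pairs libraries by experiment (a replicate block) called it, at 1.43 ± 0.40 (adjusted p = 0.0294).

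Among the carriers, Fabp5 was abundant and Fabp4 scarce, and both had their highest levels in WT day 2 cells. Fabp5, the epidermal-type fatty-acid-binding protein that is also expressed in macrophages (chromosome 3, 10012548 to 10016607, plus strand), stood at 56.1 and 101 CPM in KO monocytes, 193 and 336 CPM in KO day 1 and 211 and 121 CPM in KO day 2. In WT cells Fabp5 stood at 75.2 and 135 CPM as monocytes, 187 and 382 CPM at day 1 and then 635 and 897 CPM at day 2. In both genotypes day 1 lay above monocytes, and at day 2 WT lay above every other library while KO stayed within the span of the day 1 and monocyte libraries. Fabp5 rose in WT day 2 by 2.87 ± 0.52 (edgeR adjusted p = 0.00343), while in KO day 2 its value was 1.08 ± 0.49 (adjusted p = 0.159, and 1.12 ± 0.30 with adjusted p = 0.0209 under the replicate block, which pairs no libraries here). At day 1 Fabp5 rose in KO by 1.75 ± 0.50 (edgeR adjusted p = 0.0428). In WT day 1 it was at 1.44 ± 0.50 (adjusted p = 0.0621, and 1.41 ± 0.30 with adjusted p = 0.00616 under the block). The KO day 1 call of Fabp5 was lost without either KO monocyte library (adjusted p = 0.249 and 0.0928), KO day 1 replicate 2 (0.245) or WT day 2 replicate 1 (0.0589), and with unstranded counts (0.0532). Of the 50-base windows of Fabp5 transcripts, 5.48% also occur in other annotated genes, mostly processed copies, so some of its reads may have been lost as multimapping.

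Fabp4, the adipocyte-type fatty-acid-binding protein (chromosome 3, 10204088 to 10208576, minus strand), rested on few reads. KO libraries held 0 and 0.851 CPM of Fabp4 as monocytes, 2.34 and 1.09 CPM at day 1 and then 2.83 and 0.573 CPM at day 2, and the 0 allows up to 0.214 CPM. WT libraries held 0.766 and 0.738 CPM as monocytes, 1.57 and 5.88 CPM at day 1 and then 12.2 and 9.86 CPM at day 2. The WT day 2 libraries lay above all the others. The change in WT day 2 was 3.85 ± 1.27 (edgeR adjusted p = 0.0517), and 3.85 ± 1.17 under the replicate block (adjusted p = 0.0312), which pairs no libraries in this comparison, while KO day 2 was at 1.91 ± 1.27 (adjusted p = 0.33). Of 6 adipocyte markers, Lep, Plin1 and Cidec had 0 reads in all libraries and Adipoq at most 0.429 CPM. The list's summed level, nearly all from Adipor2, was 152 to 164 CPM in KO day 2 and 133 to 147 CPM in WT day 2.

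Among the efflux genes, both transporters rose and Apoe fell. Abcg1, which passes cholesterol to mature high-density lipoprotein (chromosome 17, 31057675 to 31117988, plus strand), stood at 68.8 and 74.5 CPM in KO monocytes, 213 and 133 CPM in KO day 1 and 366 and 271 CPM in KO day 2. In WT cells it stood at 70.6 and 29.5 CPM as monocytes, 164 and 130 CPM at day 1 and then 344 and 299 CPM at day 2. The 3 stages did not overlap in either genotype. Abcg1 rose at day 2 by 2.15 ± 0.41 in KO (edgeR adjusted p = 0.00559) and 2.68 ± 0.42 in WT (adjusted p = 0.00155). At day 1 it rose by 1.56 ± 0.41 in WT (adjusted p = 0.0212) and stood at 1.27 ± 0.40 in KO (adjusted p = 0.0606, and 1.20 ± 0.31 with adjusted p = 0.0202 under the replicate block). The WT day 1 call of Abcg1 was lost without WT monocytes replicate 2 (1.03, adjusted p = 0.0873) or either WT day 1 library (adjusted p = 0.112 and 0.0559) and with only the groups compared (0.0968), and the KO day 2 call without either KO monocyte library (adjusted p = 0.062 and 0.0556).

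Abca1, which loads cholesterol onto lipid-poor apolipoprotein (chromosome 4, 53030787 to 53159895, minus strand), rose at day 2 with a wide spread between experiments. It stood at 165 and 47.4 CPM in KO day 2 and 135 and 36.5 CPM in WT day 2, against 7.14 and 6.95 CPM in KO monocytes and 9.27 and 0.105 CPM in WT monocytes. The last value is 1 read, in the WT monocyte library that stood apart. At day 1 Abca1 stood at 50.3 and 13.6 CPM in KO and 15.9 and 17.1 CPM in WT, above all monocyte libraries. The rise at day 2 was 3.91 ± 1.21 in KO (edgeR adjusted p = 0.0479) and 4.16 ± 1.23 in WT (adjusted p = 0.0343). The WT call of Abca1 was lost without WT monocytes replicate 2 (3.17, adjusted p = 0.0719), without both libraries that stood apart (3.14, adjusted p = 0.0917) and without any of 5 other libraries (adjusted p = 0.0533 to 0.161), and with only the groups compared (0.134). Without WT monocytes replicate 1, which leaves the library with 1 read, the WT value was 9.54. The KO call was lost without any of 6 libraries (adjusted p = 0.0614 to 0.226) and with unstranded counts (0.0508).

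Apoe, the apolipoprotein that macrophages secrete with effluxed cholesterol (chromosome 7, 19696109 to 19699188, minus strand), was the member that fell. It stood at 4.50 and 2.70 CPM in KO day 2 and 4.83 and 2.02 CPM in WT day 2, against 183 and 129 CPM in KO monocytes and 316 and 286 CPM in WT monocytes. At day 1 Apoe stood at 50.6 and 3.83 CPM in KO, the higher value in the library labelled KO day 1 replicate 1, and at 7.43 and 15.6 CPM in WT. Apoe fell by 5.47 ± 1.03 in KO day 2 (edgeR adjusted p = 0.0051) and by 6.44 ± 1.07 in WT day 2 (adjusted p = 0.00205). At day 1 it fell by 4.71 ± 0.97 in WT (adjusted p = 0.00751), and KO was at -2.53 ± 0.87 (adjusted p = 0.0806), a value that was called without the library labelled KO day 1 replicate 1. The day 1 call of Apoe in WT was lost without WT day 1 replicate 1 (-4.28, adjusted p = 0.0723), and the KO day 2 call without KO day 2 replicate 2 (-5.13, adjusted p = 0.0559). Of 9 tissue macrophage markers, which as cells would also carry Apoe, the summed level was 249 to 422 CPM in KO day 2 and 159 to 277 CPM in WT day 2, against 275 to 285 CPM in KO monocytes and 283 to 387 CPM in WT monocytes. At day 1 it was 679 and 293 CPM in KO and 243 and 400 CPM in WT, so the library labelled KO day 1 replicate 1, with the highest Apoe of day 1, also had the highest sum of all 12. Adgre1 gave the most reads of these markers, 28708 over all libraries, where the next, C1qb, gave 5183 and Timd4 gave 1. As Adgre1 was present in every library, at 77.4 to 442 CPM, the sum is no clean measure of tissue macrophages. The part of such cells in the values of Apoe was not tested.

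The storage and lysosomal genes had no call. Plin2, the coat protein of lipid droplets (chromosome 4, 86648386 to 86670060, minus strand), had the narrowest span, 98.8 to 263 CPM over all 12 libraries, with the lowest value in the library labelled KO day 1 replicate 1. Its values at day 2 were -0.42 ± 0.34 in KO (edgeR adjusted p = 0.433) and -0.31 ± 0.34 in WT (adjusted p = 0.538). Lipa, the lysosomal acid lipase (chromosome 19, 34492318 to 34527474, minus strand), ran from 157 to 230 CPM over the monocyte and day 1 libraries. At day 2 it stood at 716 and 130 CPM in KO and 647 and 100 CPM in WT, so replicate 1 lay above, and replicate 2 below, every earlier library. Its changes at day 2 were 1.02 ± 0.79 in KO (adjusted p = 0.413) and 0.75 ± 0.79 in WT (adjusted p = 0.521), and they turned negative, at -0.66 and -1.17, without replicate 1 of that group.

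**Figure D2:**
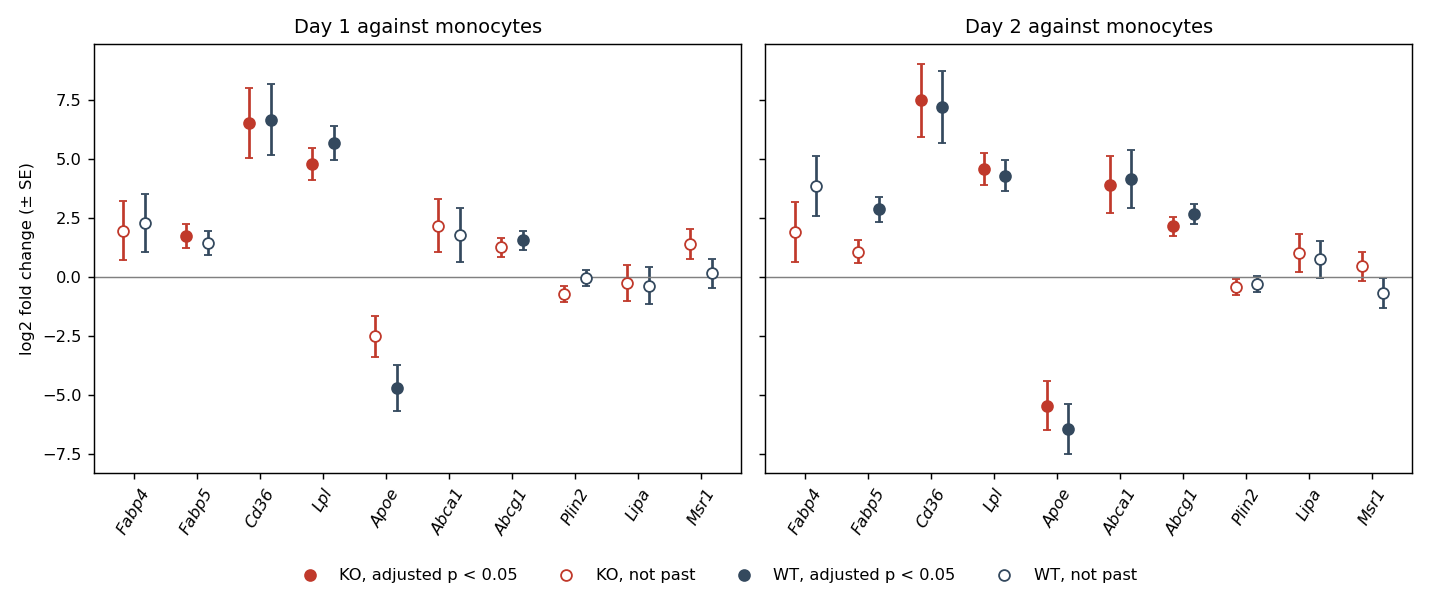
Log2 fold change ± SE of each gene at day 1 (left panel) and day 2 (right panel) against sorted monocytes, KO (red) left of WT (dark blue), filled where the edgeR adjusted p was under 0.05. At day 2 Fabp5 is filled in WT (2.87) and open in KO (1.08), and Apoe lies at -5.47 in KO and -6.44 in WT.

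The split of Lipa between the day 2 replicates was shared by KO and WT and by other members. The ratio of replicate 1 to replicate 2 at day 2 was 5.5 in KO and 6.46 in WT for Lipa, 3.49 and 3.70 for Abca1 and 2.5 and 3.5 for Msr1, KO before WT. Pparg, the receptor PPARgamma, had ratios of 4.71 in KO day 2 and 7.24 in WT day 2. In Cd36, Lpl and Abcg1 the same ratio lay between 0.99 and 1.35. The day 2 replicate 1 libraries are those with Xist reads, and the part of sex or experiment in the split was not tested.

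**Figure D3:**
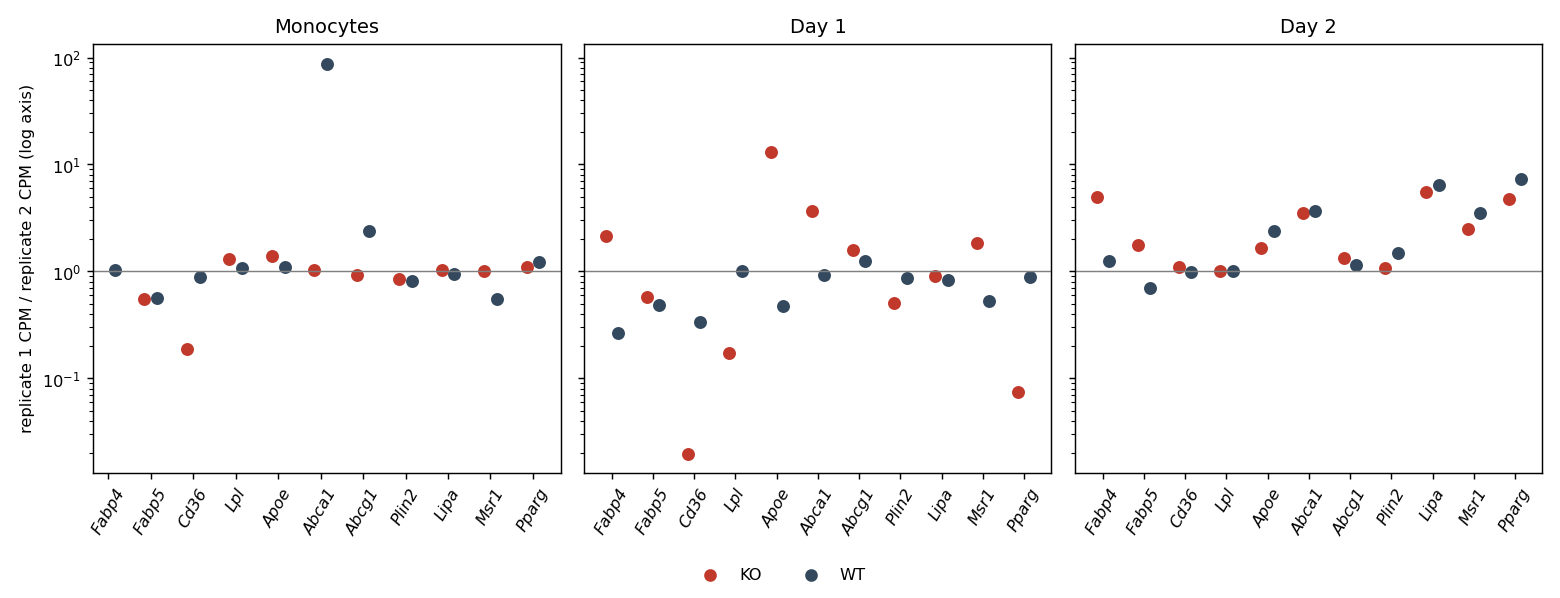
Ratio of the replicate 1 level to the replicate 2 level (CPM over CPM, log axis) of each gene and of Pparg at each stage, KO (red) left of WT (dark blue). At day 2 Lipa, Abca1, Msr1 and Pparg lie above 1 in both genotypes, with Lipa at 5.5 in KO and 6.46 in WT. A gene with 0 reads in a library has no point.

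Between genes, levels were compared per kilobase of exon, a scale on which the leading genes of the group differed before and after culture. In monocytes Apoe led in both genotypes, at 60.4 to 85.5 CPM per kb in KO and 134 to 148 in WT (lowest and highest of 2 libraries), followed by Plin2 at 63.0 to 74.8 in KO and 52.9 to 64.3 in WT. The libraries of Apoe and Plin2 overlapped in KO monocytes and did not in WT monocytes. At day 2 Lpl led, at 260 CPM per kb in KO and 220 in WT, and Apoe had dropped to 1.68 in KO and 1.60 in WT. Next in KO day 2 came Cd36 at 103 CPM per kb, Lipa at 62.4, Plin2 at 51.4, Fabp5 at 46.6, Abcg1 at 43.6 and Msr1 at 32.9. Next in WT day 2 came Fabp5 at 215 CPM per kb, Cd36 at 146, Lipa at 55.1, Plin2 at 47.2, Abcg1 at 44.1 and Msr1 at 19.9. The Lipa libraries spanned 19.2 to 106 CPM per kb in KO and 14.8 to 95.4 in WT, so its place among its neighbours is not resolved. In KO day 2 the libraries of Plin2, Fabp5 and Abcg1 also overlapped, as did those of Msr1 with Fabp5 and Abcg1, and in WT day 2 those of Plin2 and Abcg1, so their order is not resolved either. Lpl and Fabp5 overlapped in WT day 2 (220 to 221 and 178 to 252 CPM per kb).

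The genotype comparison asks whether these genes depend on Nr4a3, and no member passed at any stage in edgeR's test. That test did not call Nr4a3 itself at day 2 (-5.51 ± 1.36, edgeR adjusted p = 0.389), though it averaged 29.2 CPM in KO and 1323 CPM in WT. A member that did not pass is thus not shown to be independent of Nr4a3. The share of all tested genes called was 0% in monocytes, 0% at day 1 and 0.0998% at day 2. At an unadjusted p under 0.05 there was no member in monocytes or at day 1, against 3.97% and 1.8% of all genes, and at day 2 there were Fabp4 and Fabp5, against 3.16% of all genes. DESeq2 called Fabp5 at day 2, against 0.633% of the genes it tested there, and no member in monocytes or at day 1.

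Fabp5 at day 2 stood at 211 and 121 CPM in KO and 635 and 897 CPM in WT, with no overlap. Within the experiments, the WT level was 3 times the KO level in pair 1 and 7.43 times in pair 2. The log2 fold change of Fabp5 was -2.21 ± 0.51 (edgeR adjusted p = 0.342), and only 0.371% of tested genes had a smaller p. With the replicate block by experiment, Fabp5 was lower in KO day 2, at -2.24 ± 0.31 (adjusted p = 0.0184), as 1 of the 0.249% of tested genes called in that fit. The other blocked fits did not call Fabp5, with adjusted p = 0.142 for a block by replicate number and 0.143 for a paired fit on the day 2 libraries alone. Over all alternatives the value of Fabp5 lay between -2.64 and -1.87 and its adjusted p between 7.36e-06 and 1, the highest without KO day 2 replicate 2 or WT day 2 replicate 2. Its neighbour in function and on the chromosome, Fabp4, had 17 and 7 reads (2.83 and 0.573 CPM) in KO day 2 and 106 and 78 reads (12.2 and 9.86 CPM) in WT day 2, again with no overlap. The log2 fold change of Fabp4 was -2.75 ± 1.21 (adjusted p = 1, and 0.703 under the block). At day 1 Fabp5 was 193 and 336 CPM in KO and 187 and 382 CPM in WT, and in monocytes 56.1 and 101 CPM in KO and 75.2 and 135 CPM in WT, so the groups overlapped at both stages.

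Cd36 at day 2 also lay lower in KO (388 and 352 CPM) than in WT (522 and 527 CPM), at -0.50 ± 1.15 (edgeR adjusted p = 1). These 3 genes, Fabp4, Fabp5 and Cd36, were the members whose KO day 2 libraries both lay below both WT libraries, a pattern found in 20.6% of all tested genes. Lpl was the member with the opposite pattern, 2720 and 2720 CPM in KO and 2320 and 2300 CPM in WT (0.24 ± 0.59, adjusted p = 1), found in 17.6% of all tested genes. The other 6 members overlapped at day 2, with values between -0.01 ± 0.40 (Abcg1) and 0.72 ± 0.62 (Msr1), all with adjusted p = 1. That overlap and those p-values set aside the pairing. Within the pairs, KO over WT was 1.52 and 2.13 for Msr1, 1.22 and 1.3 for Abca1 and 1.11 and 1.3 for Lipa. A paired fit on the day 2 libraries alone, which called 12.7% of its genes, called Msr1 (0.84 ± 0.13, adjusted p = 0.00618), Cd36 (-0.51 ± 0.11, adjusted p = 0.0201) and Fabp4 (-2.94 ± 0.45, adjusted p = 0.0107). It did not call Fabp5 (-2.24 ± 0.48, adjusted p = 0.143). So few libraries say little of each gene's own spread once paired, so these SEs rest in large part on spread shared over genes. Without the pairing, Abca1 stood at 0.30 ± 1.06, Lipa at 0.18 ± 0.78, Plin2 at 0.12 ± 0.34 and Apoe at 0.03 ± 0.98. Dendritic cell markers, with most reads from Cd74, H2-Aa and H2-Ab1, summed to 25200 to 28900 CPM in KO day 2 and 17700 to 19900 CPM in WT day 2. Their part in these values was not tested.

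**Figure D4:**
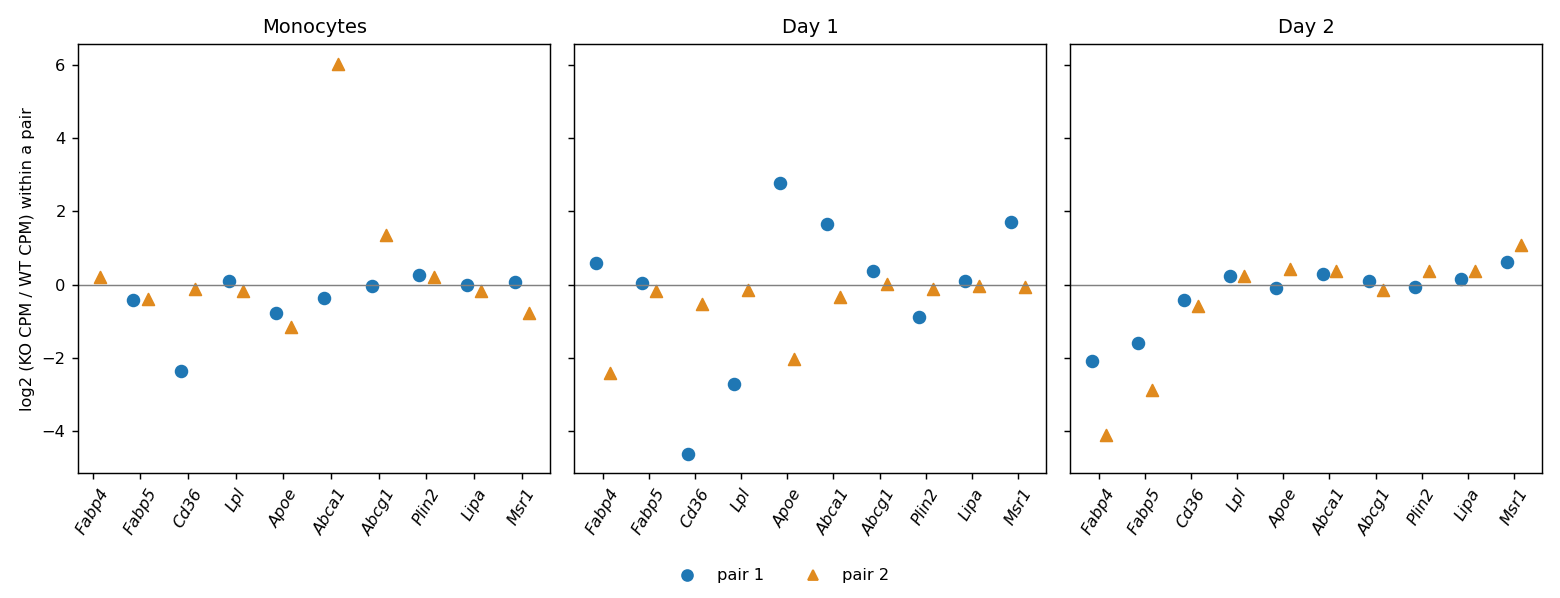
Log2 ratio of the KO level to the WT level (CPM over CPM) within each pair of libraries from the same experiment, for each gene at each stage, with circles for pair 1 and triangles for pair 2. At day 2 Fabp5 lies at -1.59 and -2.89 and Fabp4 at -2.10 and -4.11. At day 1 pair 1, which holds the library labelled KO day 1 replicate 1, Cd36 lies at -4.63, Lpl at -2.71 and Apoe at 2.77.

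At the earlier stages several differences changed with the libraries that stood apart. At day 1 Lpl was 922 and 5340 CPM in KO and 6020 and 5920 CPM in WT, at -0.93 ± 0.59 (edgeR adjusted p = 1). Both KO libraries lay below both WT libraries, as in 9.06% of all tested genes. Without the library labelled KO day 1 replicate 1 the value of Lpl was -0.16, and without KO day 1 replicate 2 it was -2.68 (adjusted p = 0.0356). Cd36 was at -0.93 ± 1.16 at day 1, and at 0.04 without that library. Apoe at day 1 was at 1.23 ± 0.85, and at -1.58 without it. In monocytes, Apoe stood at 183 and 129 CPM in KO and 316 and 286 CPM in WT, with no overlap (-0.95 ± 0.83, adjusted p = 0.998), and WT over KO was 1.73 in pair 1 and 2.22 in pair 2. Lipa also lay lower in both KO monocyte libraries (213 and 205 CPM) than in both WT ones (215 and 230 CPM). That pattern was found in 10.9% of all tested genes. Abca1 in monocytes was at 0.55 ± 1.13, and at -0.39 without WT monocytes replicate 2.

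Between day 1 and day 2 no member passed in either genotype, against 2.05% of all tested genes called in KO and 8.19% in WT. At an unadjusted p under 0.05 there were Apoe and Abcg1 in KO, against 17.6% of all tested genes, and Fabp5, Lpl and Abcg1 in WT, against 25.1%. DESeq2 called Apoe in KO, against 7.23% of the genes it tested, and Fabp5 and Abcg1 in WT, against 14.3%. Fabp5 was at -0.67 ± 0.49 in KO (edgeR adjusted p = 0.535) and 1.43 ± 0.50 in WT (adjusted p = 0.103), and Abcg1 at 0.88 ± 0.40 in KO (adjusted p = 0.282) and 1.13 ± 0.40 in WT (adjusted p = 0.111). Lpl was at -0.20 ± 0.59 in KO (adjusted p = 0.906) and -1.37 ± 0.60 in WT (adjusted p = 0.183). An edgeR fit on the WT day 1 and WT day 2 libraries alone called 16.4% of its genes. Among them were Lpl (-1.38 ± 0.31, adjusted p = 0.0314), Abca1 (2.36 ± 0.57, adjusted p = 0.0374) and Abcg1 (1.12 ± 0.26, adjusted p = 0.0343). In KO such a fit called 0.16% of its genes. The WT calls thus depended on which libraries set the spread. With the replicate block, whose p-values here do not cover the spread between experiments, the WT values of Fabp5 (1.53 ± 0.30, adjusted p = 0.00793) and Abcg1 (1.13 ± 0.30, adjusted p = 0.0301) were called, as were 16.3% of all tested genes. In KO that fit called Lipa alone among the members (0.81 ± 0.22, adjusted p = 0.0499, against 1.27 ± 0.79 with adjusted p = 0.452 without the block) and 7.5% of all tested genes. That Lipa value rests on KO day 2 replicate 1, at 716 CPM against 130 CPM in replicate 2, and without that library the unblocked value was -0.41. Under the same block KO day 1 against monocytes called 5 members (Fabp5, Cd36, Lpl, Abcg1 and Msr1), where 21.3% of all tested genes were called.

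Whether culture changed a member differently in the genotypes was tested as an interaction, the KO change minus the WT change, and no member passed. Of all tested genes, 0% were called at day 1 against monocytes, 0.0285% at day 2 against monocytes and 0% at day 2 against day 1. DESeq2 also called 0 members. Fabp5 alone of the members had an unadjusted p under 0.05, in the day 2 interactions. Of all tested genes, 3.41% had one at day 2 against monocytes and 2.42% at day 2 against day 1. The interaction of Fabp5 was -1.79 ± 0.70 at day 2 against monocytes and -2.10 ± 0.70 at day 2 against day 1 (edgeR adjusted p = 1 for both, and 0.292 and 0.202 under the replicate block). The difference between Fabp5 rising in WT day 2 and not passing in KO day 2 was thus not past the threshold.

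Pparg and Nr1h3, the 2 receptors named above as regulators of several of these genes, were scarce. Pparg stood at 4.50 and 4.11 CPM in KO monocytes, 1.21 and 16.4 CPM in KO day 1 and 26.2 and 5.56 CPM in KO day 2. In WT it stood at 4.52 and 3.69 CPM as monocytes, 19.3 and 21.9 CPM at day 1 and then 25.6 and 3.54 CPM at day 2. Pparg passed in no comparison (at day 2 against monocytes 1.86 ± 1.11 in KO and 1.83 ± 1.11 in WT, edgeR adjusted p = 0.275 and 0.256). KO against WT, the log2 fold change of Pparg was 0.07 ± 1.10 (monocytes), -1.21 ± 1.07 (day 1) and 0.10 ± 1.06 (day 2) (adjusted p = 1 for all). Nr1h3, LXRalpha, never exceeded 8.14 CPM and passed in no comparison, with KO against WT at 0.48 ± 1.26 at day 2. Related receptors were more abundant. Nr1h2, LXRbeta, averaged 106 CPM in KO monocytes, 104 in WT monocytes, 72.4 in KO day 2 and 70.0 in WT day 2. Ppard, PPARdelta, averaged 45.5 CPM in KO monocytes, 36.8 in WT monocytes, 40.6 in KO day 2 and 53.5 in WT day 2.

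Other genes of lipid handling, in 6 lists of 61 genes of which 55 were tested, moved in both directions with culture. Of the 55, 3 rose and 5 fell in KO day 1, 4 rose and 9 fell in WT day 1, 7 rose and 7 fell in KO day 2, and 7 rose and 6 fell in WT day 2. Of all tested genes, 7.7% rose and 6.14% fell in KO day 1, and 11.4% rose and 10.1% fell in WT day 1. At day 2, 9.95% rose and 7.57% fell in KO, and 12.7% rose and 9.89% fell in WT. The median log2 fold change of the 55 was -0.139 in KO day 2 and 0.0259 in WT day 2, beside 0.0803 and 0.0921 over all tested genes. edgeR called none of the 55 between KO and WT at any stage or in an interaction. At an unadjusted p under 0.05 there were 1 in monocytes, 0 at day 1 and 2 at day 2 between KO and WT, and 1 in the 3 interactions together. The shares of all tested genes between KO and WT were 3.97% in monocytes, 1.8% at day 1 and 3.16% at day 2. In the interactions they were 2.85% at day 1 against monocytes, 3.41% at day 2 against monocytes and 2.42% at day 2 against day 1.

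Of 7 tested uptake receptors, lipases and carriers, Olr1 and Slc27a1 rose and Scarb1 fell in KO day 2, and the same 3 moved in the same directions in WT day 2, where Cd68 fell too. Scarb1, the class B receptor that takes cholesterol ester from high-density lipoprotein, stood at 38.4 and 52.2 CPM in KO day 2 and 32.5 and 31.5 CPM in WT day 2, against 270 and 329 CPM in KO monocytes and 273 and 242 CPM in WT monocytes. It fell by 2.72 ± 0.33 in KO (edgeR adjusted p = 0.00048) and by 3.01 ± 0.33 in WT (adjusted p = 0.000234). Olr1, the oxidised-lipoprotein receptor LOX-1, rose by 2.99 ± 0.72 in KO (adjusted p = 0.0167) and 4.38 ± 0.76 in WT (adjusted p = 0.00256). Slc27a1, a fatty acid transport protein, rose by 3.13 ± 0.54 in KO (adjusted p = 0.00327) and 2.92 ± 0.54 in WT (adjusted p = 0.00357). Lrp1, a large lipoprotein receptor, was the most abundant of the list that did not pass, at 513 to 775 CPM in KO day 2 and 364 to 643 CPM in WT day 2.

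Of 13 genes of fatty acid activation, droplets and their lipolysis, 3 rose in KO day 2 and in WT day 2 alike (Acsl3, Acsl4 and Mgll), and Dgat2, a triglyceride synthase, fell in KO day 2. Acsl3 and Acsl4, which activate long-chain fatty acids with coenzyme A, rose by 2.88 ± 0.41 and 1.77 ± 0.28 in KO day 2 (edgeR adjusted p = 0.00112 and 0.00192) and by 2.49 ± 0.41 and 1.46 ± 0.28 in WT day 2 (adjusted p = 0.00194 and 0.00412). Mgll, monoglyceride lipase, stood at 39.7 and 180 CPM in KO day 2 and 33.0 and 163 CPM in WT day 2, against 0 and 0 CPM in KO monocytes and 1.46 and 0 CPM in WT monocytes. Among 8 efflux and remodelling genes tested, Arl4c, a small GTPase gene known as an LXR target, rose in KO day 2 (1.95 ± 0.41, adjusted p = 0.00821) and WT day 2 (2.13 ± 0.41, adjusted p = 0.00446). Abcg3 and Apoc1 fell in both, and Apoc1, an apolipoprotein beside Apoe in the genome, had 0 reads in all day 2 libraries, against 2.93 and 1.35 CPM in KO monocytes and 3.75 and 13.8 CPM in WT monocytes.

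Of 8 lysosomal lipid genes, Scarb2, a lysosomal membrane protein, fell in KO day 2 (-1.27 ± 0.37, edgeR adjusted p = 0.039) and none passed in WT day 2. Of 10 lipid-sensing regulators tested, Ppargc1b, a coactivator of mitochondrial genes, rose by 3.29 ± 0.81 in KO day 2 (adjusted p = 0.0192) and 2.52 ± 0.80 in WT day 2 (adjusted p = 0.0441). Rxrb, a retinoid X receptor, fell by 1.44 ± 0.29 in KO day 2 (adjusted p = 0.00769) and by 1.20 ± 0.29 in WT day 2 (adjusted p = 0.0146). Of 9 fatty acid oxidation genes tested, Cpt1a, the carnitine transferase that admits fatty acids to mitochondria, fell by 1.46 ± 0.32 in KO day 2 (adjusted p = 0.0114) and by 1.72 ± 0.33 in WT day 2 (adjusted p = 0.00436). No other gene of the oxidation list passed at day 2.

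**Figure D5:**
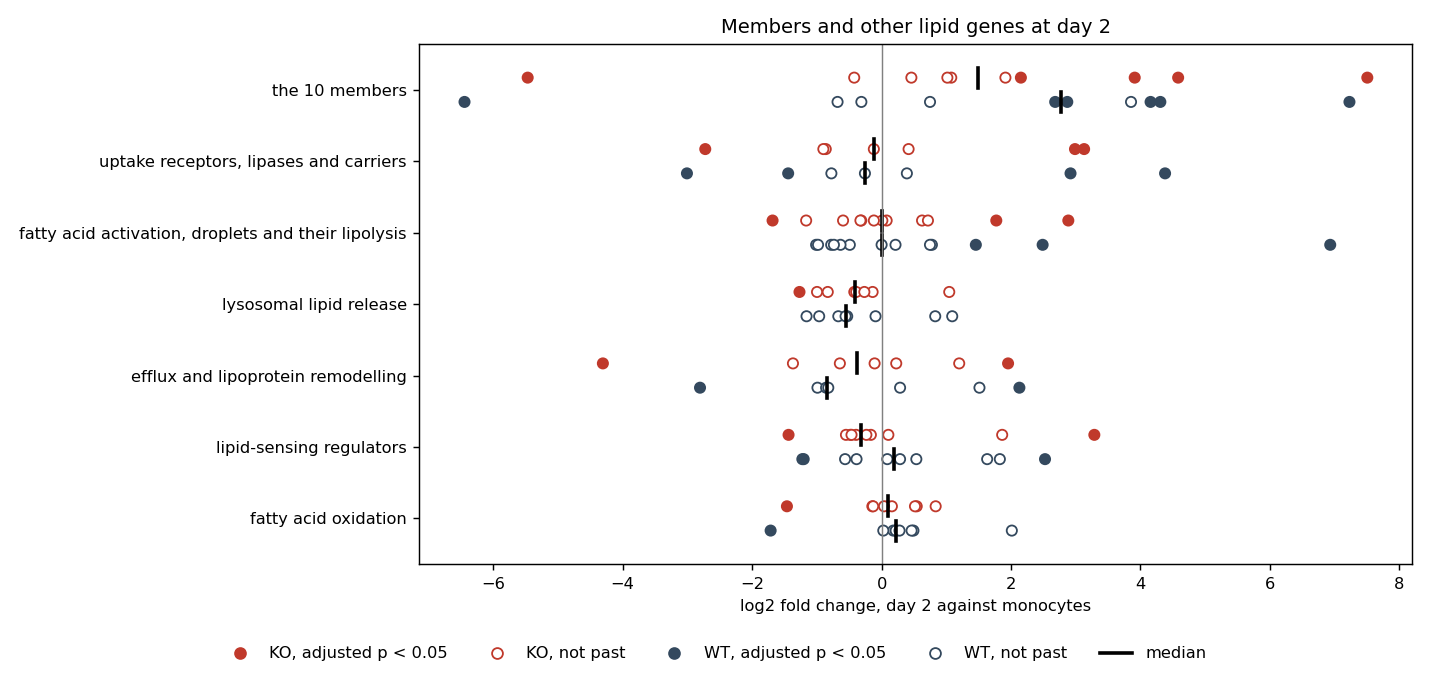
Log2 fold change at day 2 against monocytes of the 10 members and of the tested genes of 6 further lipid lists, with KO (red) above WT (dark blue) in each row, filled where the edgeR adjusted p was under 0.05, and a black bar at the median. The members' medians lie at 1.49 in KO and 2.78 in WT. Mgll in KO and Apoc1 in both, with 0 reads in all libraries of 1 of the groups compared, are in the medians and have no point.

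The genes most like each member over the 6 group means were found by the root mean square difference of centred log2 CPM over 9437 or 9438 candidates. Fabp5 was the second closest to Fabp4 (0.468), after Nipa1 (0.413). The closest to Fabp5 was Sinhcaf (0.233), to Cd36 Igsf9 (0.394) and Zbtb46 (0.431), to Lpl Chchd10 (0.201), and to Apoe Rasgrp2 (0.335). The closest to Abca1 was N4bp3 (0.389), to Abcg1 Vat1 (0.0902), to Plin2 Mus81 (0.0642), to Lipa Akr1a1 (0.0714) and to Msr1 Tfec (0.174). These values describe the 12 libraries, share their controls and carry no test.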

How the data were processed

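Each library had 1 file of deposited whole-number read counts per gene, not normalized by the authors, in the layout of STAR's gene counts. The submitters' processing notes name Trimmomatic 0.35, STAR 2.5.1b and build GRCm38, and per the labels' protocols the kit was stranded. Column 4 was used, and reads on the other strand made up 3.63% to 5.33% of reads in genes. The 4 lines that name no gene were left out of sizes and tests: unmapped reads were 2.65% to 7.91% of all reads, multimapping 5.29% to 8.94%, outside genes 5.24% to 11.2% and ambiguous 1.34% to 1.76%. Of 47643 IDs, 47224 matched a symbol in GENCODE M21 (GRCm38), the source of coordinates and exon lengths. Promoters came from RefSeq.

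Genes were tested in R 4.3.3 with edgeR 4.0.16 (TMM, filterByExpr, robust quasi-likelihood, 1 mean per group over 12 libraries, 6 residual degrees of freedom, two-sided, Benjamini-Hochberg over 14034 genes), in 9 comparisons of groups and 3 interactions. The fit was tested on simulated data. The common biological coefficient of variation was 0.393. The limit for a count of 0 is 3 counts and covers counting error only. Libraries within a group differed beyond sampling noise (chi-square per degree of freedom of 34.7 to 175).

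The members, lists, markers and tests were chosen with earlier results of these data known. The text names the 10 members, Pparg, Nr1h3, the targeted gene, up to 2 genes per list and comparison with the smallest adjusted p past the threshold (further genes are named where a count was 5 or fewer, after their values were seen) and the most abundant that did not pass, and up to 2 most alike genes per member. Nr1h2 and Ppard were added after their values were seen. Same-numbered KO and WT libraries share a date in the deposited file names, and their deviations from group means were correlated over genes (0.236 for monocytes, 0.194 for day 1, 0.657 for day 2), so the numbers were taken to pair the samples. For day 1 replicate 2 those names give a shorter culture than the labels. Alternatives were DESeq2 1.42.0, blocks on replicate number or experiment (replicate block), RLE scaling, testing without a low-count filter, only the groups compared, unstranded counts, leaving out both libraries that stood apart, and leaving out each library in turn. A fit on only the groups compared with a replicate block was chosen after seeing the data.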

Additional observations from a re-analysis of the deposited data

How the results depend on the processing

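Member counts differed between fits mostly where few or none were called. Percentages in brackets are the share called of all genes tested in that fit. For KO against WT at day 2 (0 as reported, 0.0998%) there was 1 member, Fabp5, without the low-count filter (0.634%), with the replicate block by experiment (0.249%) and with DESeq2 (0.633%, DESeq2 adjusted p of Fabp5 = 0.0029). With only the groups compared and a replicate block there were 3 (Fabp4, Cd36 and Msr1), where 12.7% of all genes were called. For WT day 2 against day 1 (0 as reported, 8.19%) there were 6 without the filter (9.36%) and 3 with only the groups compared (16.4%). There were 2 with the replicate block by experiment (16.3%) or by number (12.2%) and with DESeq2 (14.3%). For KO day 1 against monocytes (3 as reported, 13.8%) there were 7 without the filter (12%). There were 5 with the replicate block by experiment (21.3%), with DESeq2 (20.4%) and with only the groups compared plus block (16.1%). For KO day 2 against day 1 (0 as reported, 2.05%) there were 3 without the filter (5.51%) and 1 with the block by experiment (7.5%) and with DESeq2 (7.23%). Without the filter, 1 member was called in the interactions of day 1 with monocytes (Apoe, 0.513%) and of day 2 with day 1 (Fabp5, edgeR adjusted p = 0.0168, 0.545%). The replicate block by experiment changed no call of the members other than those given beside the results. Leaving out 1 library at a time gave 0 to 1 members in KO against WT at day 1, 1 to 4 in KO day 1, 2 to 5 in KO day 2, 2 to 5 in WT day 1, 0 to 2 in KO day 2 against day 1 and 0 to 2 in WT day 2 against day 1. Of the uncalled fold changes of members printed in the report, these changed sign when 1 library was left out, with their range over the libraries on the log2 scale. In KO against WT in monocytes these were Abca1 -0.39 to 5.95. In KO against WT at day 1 these were Cd36 -5.61 to 0.070, Apoe -1.58 to 2.15 and Fabp4 -1.76 to 0.12. In KO against WT at day 2 these were Apoe -0.44 to 0.79, Abca1 -0.83 to 1.52, Lipa -1.49 to 2.06, Msr1 -0.049 to 1.88, Abcg1 -0.22 to 0.18 and Plin2 -0.12 to 0.43. In WT day 1 against monocytes these were Msr1 -0.34 to 0.62 and Plin2 -0.17 to 0.053. In WT day 2 against monocytes these were Lipa -1.17 to 1.54. In WT day 2 against day 1 these were Lipa -0.76 to 1.90. In KO day 2 against monocytes these were Lipa -0.66 to 1.76 and Msr1 -0.32 to 0.96. In KO day 2 against day 1 these were Lpl -0.95 to 1.56 and Lipa -0.41 to 2.01. Without both libraries that stood apart, Abca1 was -0.38 in KO against WT in monocytes, Cd36 was 0.018 in KO against WT at day 1, Apoe was -1.61 in KO against WT at day 1, Plin2 was 0.053 in WT day 1 against monocytes. The cause was not tested. With a library left out, the lone sample of its group was assumed to vary like the other groups. The fit on only the groups compared with a replicate block could not be fitted for day 2 against earlier stages. Fabp4 had at most 106 reads in a library, and its fold changes are limited by depth.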

Other observations

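Fabp5 and Fabp4 lie on GRCm38 chromosome 3 with 187480 bases between them, and the region was looked at after their values were seen. Within 200000 bases of either gene, 21 genes are annotated and 5 had enough reads to be tested. Of the other 3 tested, Impa1, inositol monophosphatase, stood at 46.5 and 40.0 CPM in KO day 2 and 52.4 and 47.3 CPM in WT day 2 (-0.21 ± 0.25, edgeR adjusted p = 1). Zfand1 stood at 11.3 and 7.69 CPM in KO day 2 and 11.4 and 11.3 CPM in WT day 2 (-0.26 ± 0.52, adjusted p = 1), and Gm9833 at 2.67 and 3.03 CPM in KO day 2 and 3.22 and 3.41 CPM in WT day 2 (-0.22 ± 0.70, adjusted p = 1). The other fatty-acid-binding protein genes of the region, Pmp2, Fabp9 and Fabp12, had 0 reads in all 4 day 2 libraries.

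Some genes of the other lipid lists also lay higher in day 2 replicate 1 than in replicate 2 in both genotypes, and were picked out after their values were seen. Pltp, the phospholipid transfer protein, stood at 64.7 and 12.2 CPM in KO day 2 and 57.8 and 10.6 CPM in WT day 2. Nceh1, a cholesterol ester hydrolase, stood at 70.0 and 29.4 CPM in KO day 2 and 62.8 and 23.4 CPM in WT day 2, and Npc2, a lysosomal cholesterol carrier, at 802 and 302 CPM in KO day 2 and 895 and 367 CPM in WT day 2. Mgll lay the other way, at 39.7 and 180 CPM in KO day 2 and 33.0 and 163 CPM in WT day 2.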
